A study of Mus musculus with 6 samples.

Results

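Interferon-stimulated effector genes are the antiviral and immune-sensing genes that a cell switches on when interferon binds its receptor. The set described here holds 40 mouse genes listed by symbol, chosen with earlier results of these data known, and all 40 were found among the 24964 genes of the deposited expression table. They were measured by RNA-seq in the luminal epithelium of the uterus, the sheet of cells facing the uterine cavity, which was cut out with a laser from females dissected on pregnancy day 4. There are 6 samples in 2 groups. The Foxo1dd group (genotype Pgrcre/+Foxo1f/f, 3 samples) carries floxed alleles of Foxo1, a forkhead transcription factor, together with a Cre gene at the locus of Pgr, the progesterone receptor. The Foxo1ff group (genotype Foxo1f/f, 3 samples) carries the same floxed alleles and no Cre. Females were kept with littermates until 8 weeks old and then mated. Cre follows Pgr expression, which is not limited to the epithelium, and the 2 genotypes are unlike at Pgr too. The labels call the samples bioreplicates and say no more of the animals, so the spread behind each p-value is that among these samples and may be technical.

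Type I interferons act through the receptor chains IFNAR1 and IFNAR2 and the kinases JAK1 and TYK2. The kinases activate transcription factors, STAT2 and IRF9 among them, that bind a DNA element, the interferon-stimulated response element (ISRE), in front of the effector genes. The effectors sense foreign RNA, block viral translation and replication, tag proteins with ISG15, or feed back on the receptor. In the uterus this response is best known from ruminants, whose conceptus secretes interferon tau, and the mouse uterine epithelium is known to express its own interferon, interferon epsilon (Ifne).

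Expression is given as FPKM, reads scaled by gene length and library depth, as the authors deposited it. Each gene with a mean of at least 1 FPKM was tested as log2(FPKM + 1) with limma, and calls needed an adjusted p (Benjamini-Hochberg, over the 11427 genes tested) under 0.05. A log2 change is the Foxo1dd mean minus the Foxo1ff mean on that scale, where changes of low genes come out too small, and every p below is a limma adjusted p with n = 3 per group. Foxo1 itself stood at 1.72, 0.942 and 1.22 FPKM in Foxo1dd samples 1 to 3 and at 160.0, 118.5 and 110.8 FPKM in the Foxo1ff samples, while Pgr averaged 31.5 ± 4.18 FPKM in Foxo1dd and 2.03 ± 0.3996 FPKM in Foxo1ff (SD, n = 3 each). Whether the Pgr reads include transcripts of the Cre allele was not tested. Summed FPKM ran from 552190 to 564628 in Foxo1dd and from 613186 to 667499 in Foxo1ff. Foxo1dd 2 had the fewest genes above 0, 13995 against 15474 to 16062 in the other samples. By the step of the lowest values, 1 read of a 2 kb gene was worth 0.0059 to 0.00679 FPKM in Foxo1dd and 0.00509 to 0.00607 FPKM in Foxo1ff. The epithelial marker Epcam, named after its values were seen, was at 382.6 to 405.6 FPKM in Foxo1dd and 497.4 to 590.7 FPKM in Foxo1ff. All 14 luminal epithelial markers passed the minimum. Of these, 7 were called higher and 2 lower, Epcam among the 2, beside 22.2% and 34.2% of all tested genes.

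Most of the effector genes were higher in the Foxo1dd epithelium. Of the 40, 30 were called higher and 5 lower, and 5 were not called. Over all 11427 tested genes, 22.2% were called higher and 34.2% lower, 56.4% in all (2533 and 3912 genes, or 3184 and 3302 under median-of-ratios scaling). The median log2 change was 1.58 over the 40 genes and -0.15 over all tested genes. The 3 Foxo1dd values lay above the Foxo1ff range for 32 of the 40 and below it for 5, against 25.3% and 39.0% of all tested genes, 64.2% in all. All 40 passed the minimum, but 8 of them did so only through the Foxo1dd samples and 2 only through the Foxo1ff samples. The minimum itself thus favoured a difference in these 10, of which Ifi27l2a was not called. Of the other 30, 23 were called higher and 3 lower.

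As a level, the median of the 40 group means was 21.3 FPKM in Foxo1dd and 4.97 FPKM in Foxo1ff. In Foxo1dd 27 of the genes averaged at least 10 FPKM and 2 averaged under 1 FPKM, against 11 and 8 in Foxo1ff. Ifitm3 alone outweighed all others. With it the summed level was 2417, 3685 and 3347 FPKM in the Foxo1dd samples and 3205, 3747 and 3775 FPKM in the Foxo1ff samples. Without it the sums were 1037, 1485 and 1499 FPKM in Foxo1dd and 462.9, 381.6 and 436.0 FPKM in Foxo1ff. The groups therefore overlapped in the full sum and separated once the gene was set aside. In bulk samples such as these, more RNA per cell and a larger share of expressing cells cannot be told apart.

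**Figure D1:**
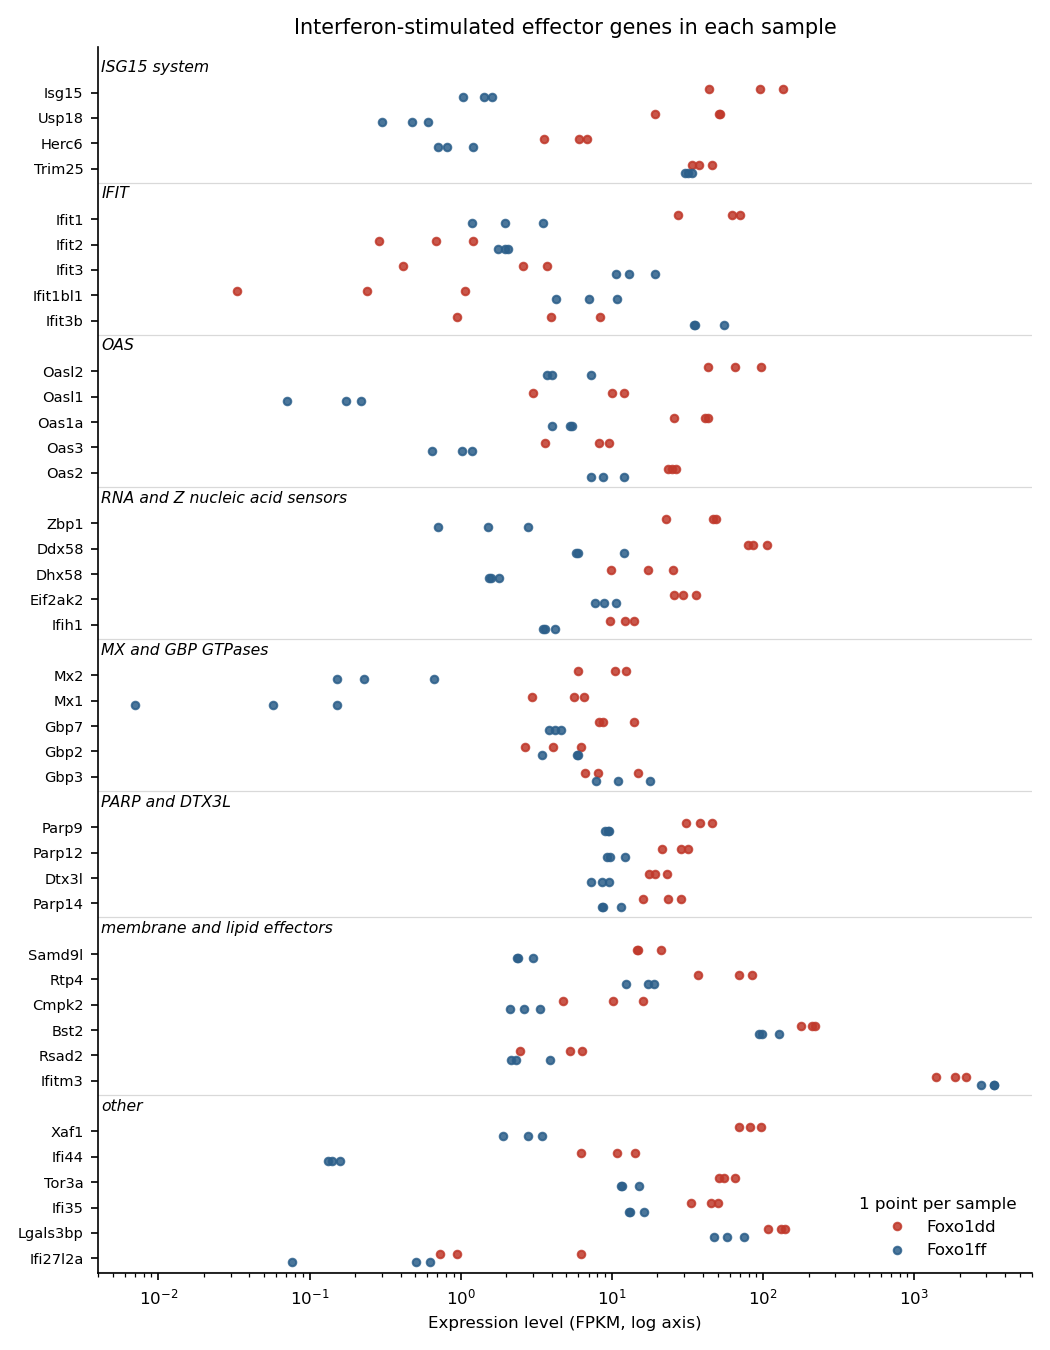
FPKM of each of the 40 genes on a log axis, 1 point per sample, Foxo1dd in red above Foxo1ff in blue, in 8 groups by function. In 32 genes all red points lie to the right of the blue ones, and in Ifit2, Ifit3, Ifit1bl1, Ifit3b and Ifitm3 all lie to the left.

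In the ISG15 conjugation group 3 of 4 genes rose, beside 22.2% of all tested genes. Isg15 and Usp18 had the largest log2 changes of the set on the log2(FPKM + 1) scale. By the ratio of group means, however, Ifi44 (73.0) and Mx1 (70.2) stood above Isg15 (67.6). Isg15 (chromosome 4, 156199424 to 156200818, minus strand, GRCm38), the ubiquitin-like protein that is attached to other proteins, had 44.1, 135.1 and 95.04 FPKM in the Foxo1dd samples and 1.04, 1.42 and 1.60 FPKM in the Foxo1ff samples. Usp18 (chromosome 6, 121245906 to 121270917, plus strand), which removes ISG15 and restrains the interferon receptor, had 19.4, 51.0 and 51.8 FPKM in Foxo1dd and 0.475, 0.303 and 0.608 FPKM in Foxo1ff. In both genes the Foxo1ff samples sat near the minimum and the lowest Foxo1dd sample lay far above them. The log2 changes were 5.16 ± 0.34 for Isg15 and 4.71 ± 0.34 for Usp18 (SE, adjusted p = 3.96e-06 and 5.98e-06). Herc6, the mouse ISG15 ligase, averaged 5.47 ± 1.70 FPKM in Foxo1dd and 0.907 ± 0.263 FPKM in Foxo1ff (SD, n = 3 each), a log2 change of 1.73. Trim25, a ubiquitin ligase that acts on the sensor RIG-I, had 37.7, 34.1 and 46.0 FPKM in Foxo1dd and 34.0, 30.6 and 31.7 FPKM in Foxo1ff. Its groups touched without overlapping and it was not called (log2 change 0.27, 95% confidence interval -0.04 to 0.58, adjusted p = 0.121), though it passed under median-of-ratios scaling (0.42, adjusted p = 0.0161).

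Beside 22.2% of all tested genes, all 5 oligoadenylate synthetase genes rose. These enzymes answer viral RNA by making oligoadenylates that activate RNase L, and the OAS-like proteins are relatives with ubiquitin-like domains. Oasl2 had 42.9, 65.6 and 96.4 FPKM in Foxo1dd and 7.29, 3.72 and 4.02 FPKM in Foxo1ff, a log2 change of 3.50 ± 0.30 (SE, adjusted p = 1.69e-05). Oasl1, known in mouse to restrain Irf7 translation, had 2.99, 9.98 and 12.1 FPKM in Foxo1dd and 0.071, 0.175 and 0.220 FPKM in Foxo1ff, a change of 2.85 ± 0.39 (SE, adjusted p = 0.00027). Both genes lie side by side on chromosome 5 (114896936 to 114937915, plus strand). Oas1a had 25.7, 41.1 and 43.0 FPKM in Foxo1dd and 4.02, 5.32 and 5.44 FPKM in Foxo1ff (2.64 ± 0.21, SE, adjusted p = 1.01e-05). Of its transcript sequence, cut into overlapping 50-base words, 57.6% also occurs in Oas1g, so the split between these genes is uncertain. Their sum was 33.6, 51.1 and 58.8 FPKM in Foxo1dd and 4.74, 6.92 and 6.82 FPKM in Foxo1ff, so the groups stay apart in the sum as deposited. Gene lengths are not given, and the sum under another split of the reads was not tested. Oas3 and Oas2 had the smaller log2 changes of the family, 1.99 and 1.36.

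The sensors of foreign nucleic acid rose together, 5 of 5, beside 22.2% of all tested genes. Ddx58 (chromosome 4, 40203773 to 40239828, minus strand), which encodes RIG-I, had 78.9, 106.6 and 85.3 FPKM in Foxo1dd and 12.01, 5.94 and 5.76 FPKM in Foxo1ff, a log2 change of 3.42 ± 0.25 (SE, adjusted p = 6.36e-06). Zbp1, a sensor of Z-form nucleic acid that can start cell death, had 22.7, 46.5 and 48.8 FPKM in Foxo1dd and 0.705, 1.51 and 2.79 FPKM in Foxo1ff (3.92 ± 0.35, SE, adjusted p = 1.88e-05). Dhx58, which encodes the RIG-I relative LGP2, had 9.83, 17.4 and 25.3 FPKM in Foxo1dd and 1.53, 1.59 and 1.80 FPKM in Foxo1ff (2.72 ± 0.29, SE, adjusted p = 5.23e-05). The annotation places exons of Dhx58os opposite Dhx58, and no strand setting is given. The changes were smaller for Eif2ak2, which encodes the translation-blocking kinase PKR, and Ifih1, which encodes the long-RNA sensor MDA5. Eif2ak2 averaged 30.4 ± 5.11 FPKM in Foxo1dd and 9.06 ± 1.44 FPKM in Foxo1ff, and Ifih1 averaged 11.9 ± 2.20 FPKM in Foxo1dd and 3.76 ± 0.389 FPKM in Foxo1ff (SD, n = 3 each). Ddx58 was thus the most abundant sensor in the Foxo1dd group, at a mean of 90.3 FPKM.

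The GTPase genes divided. Mx2 had 5.97, 10.5 and 12.4 FPKM in Foxo1dd and 0.662, 0.151 and 0.229 FPKM in Foxo1ff, a log2 change of 2.95 ± 0.27 (SE, adjusted p = 2.32e-05), and GENCODE types it as a polymorphic pseudogene. Mx1, whose mouse protein blocks influenza virus in the nucleus, had 2.95, 6.49 and 5.65 FPKM in Foxo1dd and 0.151, 0.007 and 0.057 FPKM in Foxo1ff (2.44 ± 0.26, SE). The Foxo1ff values of Mx1 include one close to that of a single read, so its ratio of means is uncertain. The guanylate-binding proteins, which attack the membranes of intracellular pathogens, had mixed calls. Gbp7 averaged 10.4 ± 3.23 FPKM in Foxo1dd and 4.23 ± 0.380 FPKM in Foxo1ff (SD, n = 3 each) and was called higher (1.09, adjusted p = 0.00175). Gbp2 had 2.66, 6.26 and 4.05 FPKM in Foxo1dd and 3.44, 5.90 and 5.93 FPKM in Foxo1ff, and Gbp3 had 6.61, 14.9 and 8.08 FPKM in Foxo1dd and 7.85, 10.9 and 17.7 FPKM in Foxo1ff. Their groups overlapped and neither was called, with 95% confidence intervals of the log2 change from -0.85 to 0.41 for Gbp2 and from -1.02 to 0.45 for Gbp3 (adjusted p = 0.524 and 0.486). The signs of these estimates turned without Foxo1dd replicate 1 for Gbp2 (0.02) and without Foxo1ff replicate 3 for Gbp3 (0.01). Gbp7, Gbp3 and Gbp2 lie in 1 run on chromosome 3 (142530342 to 142638008, plus strand), so genes of the same cluster had different calls. Over all 11 Gbp genes of the table, 6 were tested, of which 3 were called higher and 3 not called. Of all tested genes 22.2% were called higher. The rises outside the set, named after their values were seen, were Gbp9 (log2 change 2.91, adjusted p = 1.18e-05) and Gbp4 (1.51, adjusted p = 0.000989), both of which passed the minimum only through the Foxo1dd samples.

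The ADP-ribosyltransferase genes Parp9, Parp12 and Parp14 and the ubiquitin ligase gene Dtx3l all rose, by 1.13 to 1.91 log2. Of all tested genes 22.2% were called higher. Parp9 had 31.0, 38.2 and 45.8 FPKM in Foxo1dd and 9.60, 9.44 and 8.98 FPKM in Foxo1ff, a log2 change of 1.91 ± 0.16 (SE, adjusted p = 1.18e-05). Dtx3l, which encodes its partner in a complex, had a change of 1.14 ± 0.16 (SE, adjusted p = 0.000269). Both genes start from opposite strands of chromosome 16 with overlapping exons, and 7.71% of the 50-base words of Parp9 occur in Dtx3l. Parp12 and Parp14, the other two, had changes of 1.31 and 1.13. Outside the set, Parp10 was called higher (0.83) and Parp11 was not called (0.37, adjusted p = 0.112), both named after their values were seen.

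Of the membrane-associated and nucleotide-modifying effectors, 4 of 6 rose, beside 22.2% of all tested genes. Samd9l, a restraint on growth and on poxvirus replication, had 14.9, 14.6 and 21.2 FPKM in Foxo1dd and 3.01, 2.37 and 2.40 FPKM in Foxo1ff, a log2 change of 2.30 ± 0.18 (SE, adjusted p = 1.01e-05). Rtp4, a chaperone of receptors, averaged 63.4 ± 24.2 FPKM in Foxo1dd and 16.1 ± 3.42 FPKM in Foxo1ff, and Bst2 (tetherin, which holds budding virus at the cell surface) averaged 202.8 ± 22.0 FPKM in Foxo1dd and 106.0 ± 18.2 FPKM in Foxo1ff (SD, n = 3 each). Bst2 had the smallest of the called rises, 0.94 log2. Rsad2 and Cmpk2 lie next to each other on chromosome 12 (26442746 to 26479837) on opposite strands. Cmpk2, a nucleotide kinase, was higher (10.3 ± 5.66 FPKM in Foxo1dd, 2.69 ± 0.630 FPKM in Foxo1ff, SD, n = 3 each; log2 change 1.49, adjusted p = 0.00564). Rsad2 (viperin), whose product makes a chain-terminating nucleotide, had 2.48, 6.38 and 5.28 FPKM in Foxo1dd and 3.89, 2.15 and 2.32 FPKM in Foxo1ff and was not called (0.55, 95% confidence interval -0.12 to 1.23, adjusted p = 0.145). Foxo1dd sample 1 lay inside the Foxo1ff range of Rsad2, and without it the gene was called (0.87, adjusted p = 0.0196).

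Among the remaining genes, Xaf1 (chromosome 11, 72301629 to 72313733, plus strand), a cell death factor that opposes XIAP, had the smallest p of the set. It had 69.7, 96.0 and 81.6 FPKM in Foxo1dd and 3.46, 1.89 and 2.77 FPKM in Foxo1ff, a log2 change of 4.50 ± 0.19 (SE, adjusted p = 3.98e-07). Ifi44 had 6.26, 10.9 and 14.3 FPKM in Foxo1dd and 0.158, 0.132 and 0.141 FPKM in Foxo1ff (3.26 ± 0.26, SE, adjusted p = 1.1e-05), a gap wide against the spread of either group. Tor3a, an ATPase of the endoplasmic reticulum, Ifi35, and Lgals3bp, a secreted glycoprotein, had changes of 2.09, 1.52 and 1.08. Ifi27l2a, a small membrane protein gene, had 0.734, 0.949 and 6.24 FPKM in Foxo1dd and 0.076, 0.505 and 0.630 FPKM in Foxo1ff. Its Foxo1dd mean rests on sample 3, and it was not called (1.07, 95% confidence interval -0.04 to 2.18, adjusted p = 0.0916).

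**Figure D2:**
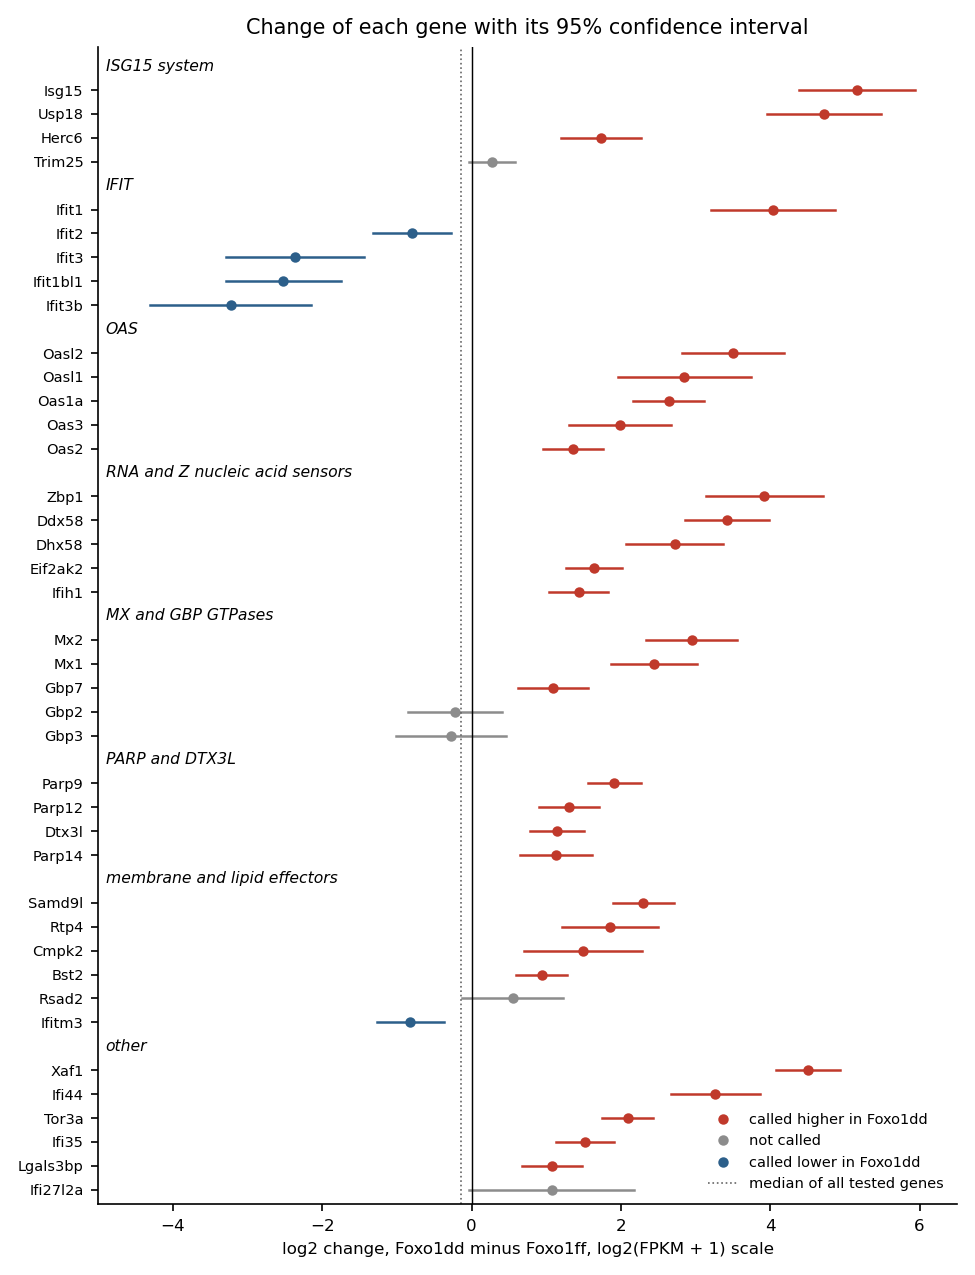
Log2 change of each gene (Foxo1dd minus Foxo1ff, log2(FPKM + 1) scale) with its 95% confidence interval from limma, red for genes called higher, blue for genes called lower and grey for genes not called. The dotted line is the median of all tested genes at -0.15, and the IFIT genes lie far to both sides of it, with Ifit1 at 4.03 and Ifit3b at -3.23.

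The IFIT genes went in opposite directions within 1 run of chromosome 19. IFIT proteins bind foreign RNA ends and block translation from them, and IFIT3 is known to stabilise IFIT1. Ifit1 (34640871 to 34650009, plus strand) had 27.2, 70.6 and 62.2 FPKM in the Foxo1dd samples and 3.48, 1.18 and 1.98 FPKM in the Foxo1ff samples, a log2 change of 4.03 ± 0.37 (SE, adjusted p = 2.27e-05). Ifit3 (34583531 to 34588731, plus strand) had 0.415, 3.71 and 2.59 FPKM in Foxo1dd and 19.2, 10.6 and 12.9 FPKM in Foxo1ff, a change of -2.36 ± 0.41 (SE, adjusted p = 0.00105). The groups did not overlap in either gene. Within each sample the ratio of Ifit1 to Ifit3 was 65.6, 19.05 and 24.0 in Foxo1dd and 0.182, 0.112 and 0.153 in Foxo1ff, so the more abundant of the pair was Ifit1 in every Foxo1dd sample and Ifit3 in every Foxo1ff sample.

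The other IFIT genes fell as well. Ifit3b (34607970 to 34613401, plus strand), a close copy of Ifit3, had 0.946, 8.33 and 3.94 FPKM in Foxo1dd and 55.2, 35.2 and 35.1 FPKM in Foxo1ff, a log2 change of -3.23 ± 0.48 (SE, adjusted p = 0.000408). Of its 50-base words 44.5% occur in Ifit3, so the split between the copies is uncertain, but their sum was 1.36, 12.04 and 6.53 FPKM in Foxo1dd and 74.4, 45.7 and 48.0 FPKM in Foxo1ff. The sum thus separated the groups as the single genes did. Ifit1bl1 (34592891 to 34601956, minus strand), an Ifit1 relative, had 0.033, 1.06 and 0.238 FPKM in Foxo1dd and 10.9, 7.04 and 4.24 FPKM in Foxo1ff (-2.52 ± 0.34, SE, adjusted p = 0.000242). Ifit2 (34550694 to 34576419, plus strand), linked in other settings to cell death, had 0.288, 1.197 and 0.683 FPKM in Foxo1dd and 2.06, 1.98 and 1.76 FPKM in Foxo1ff (-0.80 ± 0.23, SE, adjusted p = 0.015). Ifit2 had the lowest Foxo1ff mean of the family, shares no 50-base word with another gene, and lost its call under quantile normalization (-0.63, adjusted p = 0.0579). Only 7.13% of the Ifit1 words and 6.45% of the Ifit1bl1 words occur in other genes, mostly Ifit1bl2.

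The run reads Ifit2, Ifit3, Ifit1bl1, Ifit3b, Ifit1bl2, Ifit1 along the chromosome, and the fallers occupy its first 4 places. Ifit1bl2, which is not in the set and was under the minimum, had 0.312, 0.233 and 0.713 FPKM in Foxo1dd and 0.020, 0.030 and 0.122 FPKM in Foxo1ff. The flanking genes are named here by position after their values were seen. Ch25h, which makes an antiviral oxysterol and is itself interferon-inducible, lies before the run and had 0.096, 0 and 0 FPKM in Foxo1dd and 21.2, 25.0 and 26.2 FPKM in Foxo1ff. Lipa, a lysosomal lipase between Ch25h and Ifit2, was not called (log2 change 0.59, adjusted p = 0.0663), and neither was Slc16a12 after Ifit1 (0.57, adjusted p = 0.0525). The other tested genes within 500 kb were lower, Ankrd22 (-1.74), Stambpl1 (-2.04), Pank1 (-1.19) and Kif20b (-1.32), as log2 changes. Of the 7 tested flanking genes 5 were thus lower, 2 not called and 0 higher. Over all tested genes 34.2% were lower and 22.2% higher, and the counts of so few genes are not read further.

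**Figure D3:**
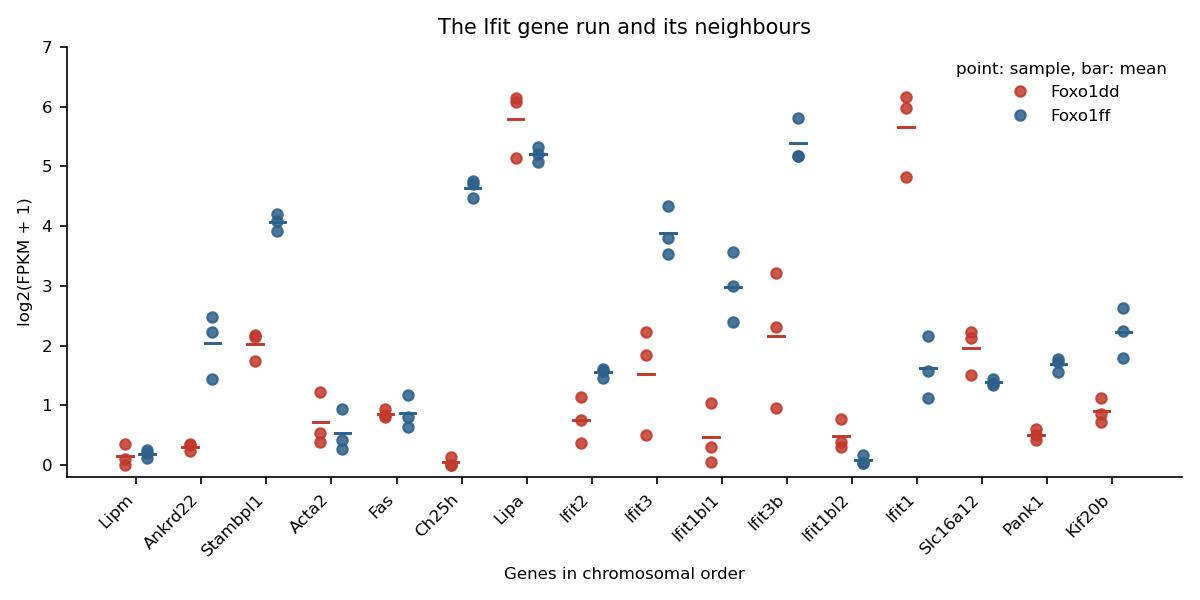
Level of each gene in the Ifit run and within 500 kb of it, in chromosomal order, as log2(FPKM + 1), with Foxo1dd in red left of Foxo1ff in blue, points for samples and bars for group means. Genes averaging under 0.1 FPKM over the samples are left out, and Ifit1 stands high in Foxo1dd at the end of a run in which Ifit2, Ifit3, Ifit1bl1 and Ifit3b stand low.

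Ifitm3 (chromosome 7, 141009586 to 141010770, minus strand) was the fifth gene that fell and by far the most abundant. Its protein blocks fusion of viral and endosomal membranes, and IFITM proteins are known from human and mouse placenta to block cell fusion by syncytin. It had 1380, 2200 and 1848 FPKM in Foxo1dd and 2742, 3366 and 3339 FPKM in Foxo1ff, groups that did not overlap, for a log2 change of -0.82 ± 0.20 (SE, adjusted p = 0.00624). The call was lost by a small margin without a filter (adjusted p = 0.0552), under median-of-ratios scaling (-0.67, adjusted p = 0.0503) and under quantile normalization (-0.40, adjusted p = 0.0642). Its paralog Ifitm1, named after its values were seen, had 1332 ± 293.2 FPKM in Foxo1dd and 2267 ± 339.7 FPKM in Foxo1ff (SD, n = 3 each; -0.78, adjusted p = 0.00744), while Ifitm2 was not called (-0.17, adjusted p = 0.449). Of the Ifitm3 words, 10% occur in other genes.

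Within the Foxo1dd group, sample 1 was the lowest in 26 of the 30 genes called higher and also in all 5 called lower. Sample 2 was the highest in all 5 that fell and in 10 of those that rose, and sample 3 in the other 20. Sample 1 was thus the low sample for most of the rising and all of the falling genes. How often it was lowest over all tested genes was not counted. The median-of-ratios factor was 1.00 for Foxo1dd 1, 0.877 for sample 2 and 0.978 for sample 3, and the part of library scale in this order was not tested. Without Foxo1dd sample 1 the counts were 31 higher and 5 lower, beside 2241 and 3718 of all tested genes.

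The promoters of these genes, taken from RefSeq on GRCm38.p6 as 250 bases before to 50 bases after a gene's start, were searched for the core of the ISRE, spelled GAAA, any 2 bases and GAAA again, on both strands. Promoters were listed for 29 of the 40 genes, 32 promoters in all, and 17 of them (53.1%) held a match, against 3.44% of all 32851 promoters of this length. A match was found in 9 of 20 promoters of genes called higher, 5 of 7 of genes called lower and 3 of 5 of genes not called. Counted by gene, it was 9 of 20, 4 of 5 and 3 of 4. The 11 genes without a listed promoter were all called higher except Ifi27l2a, which was not called, so these counts leave out risers and no faller. Genes that rose and genes that fell thus both carried the letters. The STAT dimer letters TTCNNNGAA were in 7 of the 32 promoters and in 8.3% of all promoters, and matches may overlap those of the ISRE. The forkhead letters GTAAACA, on either strand, were in 2 of the 32, those of Gbp3 and Rsad2, and in 3.65% of all promoters. A match describes the letters in this window only.

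Stretches around the ISRE letters are shown for genes that differ in direction, with the matching letters in capitals and 20 bases, or fewer at the end of a window, on each side. The first 3 belong to genes that rose, the next 4 to genes that fell and the last to a gene not called. Each reads 5′ to 3′ on the strand of its gene. They lie at chr4:156200855-156200916 (Isg15, minus strand), chr5:120907510-120907565 (Oas1a, minus), chr4:40239794-40239843 (Ddx58, minus), chr19:34583353-34583436 (Ifit3, plus), chr19:34607749-34607832 (Ifit3b, plus), chr19:34602043-34602092 (Ifit1bl1, minus, 1 of its 2 listed promoters), chr7:141010696-141010762 (Ifitm3, minus) and chr12:26456543-26456592 (Rsad2, minus).
Isg15: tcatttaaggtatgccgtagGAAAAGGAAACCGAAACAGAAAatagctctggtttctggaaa
Oas1a: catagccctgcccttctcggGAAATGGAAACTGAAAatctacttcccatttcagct
Ddx58: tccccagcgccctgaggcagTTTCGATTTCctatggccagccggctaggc
Ifit3: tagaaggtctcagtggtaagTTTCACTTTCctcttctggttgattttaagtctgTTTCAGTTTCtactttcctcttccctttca
Ifit3b: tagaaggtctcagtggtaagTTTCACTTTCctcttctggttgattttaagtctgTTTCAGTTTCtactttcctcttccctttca
Ifit1bl1: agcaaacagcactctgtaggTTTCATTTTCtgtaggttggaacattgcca
Ifitm3: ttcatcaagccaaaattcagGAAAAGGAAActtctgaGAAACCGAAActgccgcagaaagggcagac
Rsad2: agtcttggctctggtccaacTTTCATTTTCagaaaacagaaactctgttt
The stretches of Ifit3 and Ifit3b are identical over all 84 bases, and both genes fell.

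The whole promoter windows of Ifit1, which rose, and Ifit3, which fell, are given side by side because the pair shares a chromosome run and moved in opposite directions. They are chr19:34640639-34640938 and chr19:34583279-34583578 on the plus strand, and each holds 2 matches, in capitals.
Ifit1: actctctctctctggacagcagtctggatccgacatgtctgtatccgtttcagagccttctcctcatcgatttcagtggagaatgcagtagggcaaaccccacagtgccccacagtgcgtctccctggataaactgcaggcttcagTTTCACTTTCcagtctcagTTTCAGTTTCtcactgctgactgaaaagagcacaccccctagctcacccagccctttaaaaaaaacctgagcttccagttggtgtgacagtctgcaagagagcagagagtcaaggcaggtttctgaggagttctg
Ifit3: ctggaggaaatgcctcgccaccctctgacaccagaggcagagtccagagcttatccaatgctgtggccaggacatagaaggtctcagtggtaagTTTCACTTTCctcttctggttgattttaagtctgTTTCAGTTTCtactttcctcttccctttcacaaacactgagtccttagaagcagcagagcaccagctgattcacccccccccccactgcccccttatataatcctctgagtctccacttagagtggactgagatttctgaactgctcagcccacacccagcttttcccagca

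Interferon ligands were close to absent. Of 21 interferon genes in the table, 16 were listed at 0 in every sample, among them Ifnb1 and Ifng. Ifne was the exception and the only one above the minimum, with 14.5, 8.35 and 35.9 FPKM in Foxo1dd and 7.01, 11.5 and 11.9 FPKM in Foxo1ff. Its groups overlapped and it was not called (log2 change 0.69, 95% confidence interval -0.29 to 1.66, adjusted p = 0.205), although without Foxo1dd sample 2 it was (1.14, adjusted p = 0.0239). Ifnl2 and Ifnl3, lambda interferon genes named after their values were seen, were at 0 in every Foxo1ff sample and reached at most 0.364 and 0.101 FPKM, both in Foxo1dd sample 3. Ifnk and Ifnz were also named afterwards. Ifnk had 0.569, 0 and 0.230 FPKM in Foxo1dd and 0.315, 0.223 and 0.074 FPKM in Foxo1ff. Ifnz was above 0 only in Foxo1ff sample 3, at 0.017 FPKM.

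Of 20 tested receptor, JAK-STAT and IRF genes, 11 rose and 4 fell, with a median log2 change of 0.42, beside 22.2% higher and 34.2% lower and a median of -0.15 over all tested genes. The number that rose was 8 without Foxo1ff replicate 2 and 7 without Foxo1ff replicate 3, beside 2109 and 2164 of all tested genes. Stat2 and Irf9, whose products bind the ISRE, both rose. Stat2 averaged 28.1 ± 8.96 FPKM in Foxo1dd and 5.11 ± 0.307 FPKM in Foxo1ff, and Irf9 averaged 61.3 ± 5.70 FPKM in Foxo1dd and 14.6 ± 2.24 FPKM in Foxo1ff (SD, n = 3 each). The log2 change was 2.20 for Stat2 and 2.00 for Irf9. Irf7, which amplifies the response and is itself interferon-induced, had 73.0, 144.5 and 185.1 FPKM in Foxo1dd and 1.81, 1.13 and 3.64 FPKM in Foxo1ff, a change of 5.38 ± 0.36 (SE, adjusted p = 4.29e-06). Exons of other genes overlap Irf7 (Phrf1), Myd88 (Acaa1a), Adar (Chrnb2) and Usp18 (Gm44148) on the opposite strand and Irf9 (Rnf31) on the same strand, so reads of these pairs may not be told apart. Irf1, named after its values were seen, was not called (-0.06, adjusted p = 0.696). Receptor chains were lower, Ifngr1 of the interferon gamma receptor at 19.4 ± 2.95 FPKM in Foxo1dd and 55.7 ± 2.63 FPKM in Foxo1ff (-1.48, adjusted p = 2.61e-05), and Ifnar1, named after its values were seen, at 15.5 ± 1.41 FPKM in Foxo1dd and 24.6 ± 2.57 FPKM in Foxo1ff (-0.63, adjusted p = 0.00355; SD, n = 3 each). Not all chains fell, since Ifngr2 and Ifnlr1, also named afterwards, were called higher (0.65 and 0.56, adjusted p = 0.0166 and 0.0154).

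Of 14 tested genes of nucleic acid sensing outside the set, 5 rose and 2 fell, with a median log2 change of 0.23, counts that are not read further beside the 22.2% and 34.2% of all tested genes. Myd88, the adaptor of Toll-like receptors, averaged 341.9 ± 66.9 FPKM in Foxo1dd and 33.7 ± 0.357 FPKM in Foxo1ff, and Tlr3, the endosomal receptor of viral RNA, averaged 11.7 ± 0.307 FPKM in Foxo1dd and 4.05 ± 0.696 FPKM in Foxo1ff (SD, n = 3 each). Adar, an RNA-editing enzyme, had a log2 change of 1.17, and Traf3, a signalling adaptor, one of -1.29. The other gene that fell, named after its values were seen, was Mb21d1, which encodes the DNA sensor cGAS (-1.17, adjusted p = 0.000475). Mavs, the adaptor of RIG-I and MDA5, and Tmem173, which encodes STING, both also named afterwards, were not called (0.47 and -0.08, adjusted p = 0.0672 and 0.745).

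Of 51 tested interferon-stimulated genes outside the set, 37 rose and 9 fell, beside the same 22.2% and 34.2%, with a median log2 change of 1.23. Some of the 37, Gbp4 and Gbp9 among them, averaged under 1 FPKM in Foxo1ff and passed the minimum only through Foxo1dd. Slfn9 passed it only through Foxo1ff. The minimum itself favoured a difference in such genes, and how many they were was not counted. By the smallest p, the leading genes were Isg20, an RNA exonuclease (3.26), Lgals9, a galectin (3.69), Slfn9 (-3.43) and Epsti1 (2.45), as log2 changes. Ly6a, named after its values were seen, was at 22.6 ± 4.53 FPKM in Foxo1dd and 303.1 ± 113.2 FPKM in Foxo1ff (SD, n = 3 each; -3.62). Uba7, the ISG15-activating enzyme, was higher (1.86, adjusted p = 8.1e-06) and Ube2l6, the ISG15-conjugating enzyme, was not called (-0.02, adjusted p = 0.953), both named after their values were seen.

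**Figure D4:**
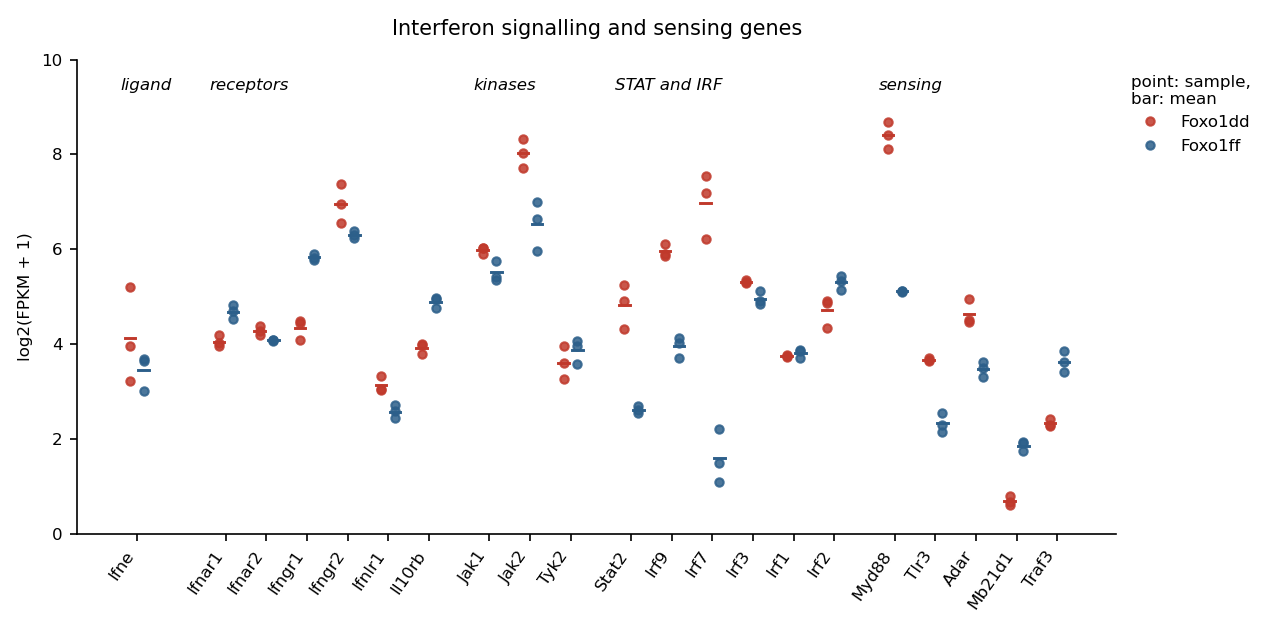
Level of interferon ligand, receptor, kinase, transcription factor and sensing genes as log2(FPKM + 1), with Foxo1dd in red left of Foxo1ff in blue, points for samples and bars for group means. Ifngr2, Ifnlr1, Jak1, Jak2, Stat2, Irf9, Irf7, Irf3, Myd88, Tlr3 and Adar stand higher in Foxo1dd. Ifnar1, Ifngr1, Il10rb, Irf2, Mb21d1 and Traf3 stand lower, and the Ifne groups overlap.

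Leukocytes also express interferon-stimulated genes, so their markers were measured in the same samples. Of 34 leukocyte markers 14 were tested, of which 4 were higher and 8 lower in Foxo1dd, beside 22.2% and 34.2% of all tested genes. The summed level of the 34 was 234.7 to 273.4 FPKM in Foxo1dd and 168.8 to 205.9 FPKM in Foxo1ff. That sum rests on Cd14 and Laptm5. Without both, the other 32 markers summed to 35.2 to 52.0 FPKM in Foxo1dd and 73.8 to 128.6 FPKM in Foxo1ff, which turns the direction. The 2 were set aside after their values were seen. Lyz2 weighs heavily in the reduced sum, at 7.98, 5.23 and 9.32 FPKM in Foxo1dd and 54.2, 61.3 and 14.8 FPKM in Foxo1ff. A sum without Lyz2 was not taken. Ptprc, the pan-leukocyte marker CD45, was at 0.252 to 0.372 FPKM in Foxo1dd and 2.96 to 4.06 FPKM in Foxo1ff, and Siglech, a marker of plasmacytoid dendritic cells, at 0 to 0.033 FPKM in Foxo1dd and 0.016 to 0.375 FPKM in Foxo1ff. The neutrophil marker S100a8 was at 0 in every sample. The markers that were higher, Laptm5, Cd14, Ly6g and Cd68, had log2 changes of 3.71, 0.96, 1.52 and 0.55. Of 10 tested stromal markers 2 were higher, Col3a1 and Nr2f2, a share close to the 22.2% of all tested genes, and none of 8 endothelial markers reached the minimum. Of 8 gland markers 4 were tested, 1 higher and 3 lower, beside 22.2% and 34.2% of all tested genes. The sum of the 8 was 1.21 to 7.11 FPKM in Foxo1dd and 52.0 to 210.0 FPKM in Foxo1ff, most of it Spink1 in Foxo1ff. Spink1 was at 0 to 0.307 FPKM in Foxo1dd and 44.2 to 178.4 FPKM in Foxo1ff, and Prss28 and Prss29 were lower too. Lif was the gland marker that was higher (1.45). Foxa2, under the minimum, was at 0.399 to 0.908 FPKM in Foxo1dd and 0.643 to 1.357 FPKM in Foxo1ff. Of 8 trophoblast markers 3 were tested, Elf5, Krt8 and Krt18, and both keratins are on the luminal epithelial list as well. Of the 3, Elf5 and Krt8 were higher, beside 22.2% of all tested genes. Elf5 was at 15.6 to 39.8 FPKM in Foxo1dd and 0.027 to 0.398 FPKM in Foxo1ff. The rest were under the minimum, with Cdx2 and Hand1 at 0 in every sample. Marker genes in this paragraph were named after their values were seen. The part of these cells in the changes of the effector genes was not tested.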

How the data were processed

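RNA-seq of 6 laser-captured samples was analysed from 1 table of FPKM values, which the authors deposited per gene and sample. The submitters' processing notes list DESeq2 1.12.4, edgeR 3.28.0, the Subread counter featureCounts 1.5.0-p1, the aligner STAR 2.5.2b and build mm10, without saying what each did. No annotation, gene length, strand setting or scaling is named in those sources. Because FPKM values are not counts, log2(FPKM + 1) was fitted with limma 3.58.1 in R 4.3.3 (lmFit, eBayes with trend), genotype as the only term, on the 11427 genes averaging 1 FPKM or more. The fit was tested on simulated data.

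The members, the lists and the alternatives were chosen with earlier results of these data known. Values in every sample are given for members that fell, that were not called, for the 12 largest rises and for the smallest p of each family, and list genes are named by the 4 smallest p. Foxo1, Pgr, Stat2, Irf7, Irf9 and Ifne were also named by plan. Other genes were named afterwards, and most are marked so. Among those without the mark are Ifnb1, Ifng, Oas1g, Ifitm2, Ifit1bl2, Il10rb, Jak1, Jak2, Irf2 and Irf3. The values of 1 listed signalling gene are not reported here.

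The value of 1 read comes from microRNA and small nucleolar RNA genes of RefSeq length. The step chosen left at least 80% of values under 12 reads whole to within 0.05 of a read (88.5% to 100% per library), and it is least certain for Foxo1dd 2, with 26 such genes. Positions and exon overlaps are from GENCODE M21 (GRCm38, the assembly of mm10), shared 50-base words from its transcripts, and promoters from RefSeq (GRCm38.p6). With 3 samples a group, exact permutation cannot give p below 0.1 and was not used.

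As alternatives, each sample was left out, the bioreplicate number was a block, eBayes was run robustly or with no trend, values were rescaled by quantiles or by median of ratios, the minimum was 5 FPKM or absent, and the pseudocount was 0.5 or 0.1.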

Additional observations from a re-analysis of the deposited data

How the results depend on the processing

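Each of the 40 genes was refitted under 15 alternatives, and 33 had the same sign and call under every alternative that gave them a value. The other 7 are Trim25, Ifit2, Gbp2, Gbp3, Rsad2, Ifitm3 and Ifi27l2a. With each sample left out in turn, the log2 change of Gbp2 ran from -0.47 to 0.022 (positive only without Foxo1dd replicate 1) and that of Gbp3 from -0.59 to 0.0072 (positive only without Foxo1ff replicate 3). The number of the 40 called lower was 3 under a minimum mean of 5 FPKM, where fewer genes are tested. It was also 3 under quantile normalization, where Ifit2 and Ifitm3 lost their calls (adjusted p = 0.0579 and 0.0642), for a reason not tested. Under quantile normalization 3360 of all tested genes were lower. The minimum of 5 FPKM also left 1 sensing gene lower and 24 further interferon-stimulated genes higher, beside 3153 lower and 1962 higher in all. With each sample left out in turn, 7 to 11 signalling genes were higher and 2 to 3 sensing genes were lower. Of all tested genes 2109 to 2740 were then higher and 3119 to 3718 lower. The bioreplicate numbers are shared between the groups, but deviations of same-numbered samples correlated at 0.123, 0.107 and -0.133, so they were not taken as pairs. With the number as a replicate block, 31 of the 40 were higher and 5 lower, Ifi27l2a being gained (adjusted p = 0.0239), and 2417 genes were higher and 3724 lower in all. Median-of-ratios scaling moved the median of all tested genes to -0.0068. Depth limits the Foxo1ff values of Mx1, the lowest of which is close to the value of 1 read.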
